A study of Mus musculus with 9 samples.

Results

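The mouse miRNA families miR-297, miR-466, miR-467 and miR-669 were followed in subcutaneous fat of WT mice and of mice with an endothelial knockout of Ago1. Members were chosen by name alone, as every mature miRNA called miR-297, miR-466, miR-467 or miR-669, with any letter, copy number or arm. They made up 69 of the 860 miRNAs in the deposited values, namely 6 of miR-297, 30 of miR-466, 13 of miR-467 and 20 of miR-669. No measured value chose them. The deposited values served only to merge miRNAs whose values were identical in all 9 libraries, which left 58 distinct profiles. The families were singled out with earlier results of these data known, so counts over members are given as descriptions.

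The 3 genotypes were WT littermates, Hete KO and Homo KO (written Hete_KO and Homo_KO here), with 3 mice each and 1 library per mouse. Ago1 encodes 1 of the Argonaute proteins, the partners with which mature miRNAs repress target mRNAs. The series' title places its knockout in endothelial cells, and the driver of the deletion is not stated there or in the labels. All groups shared the same diet and age: the mice ate high fat high sucrose food for 16 weeks from the age of 8 weeks and were 24 weeks old. Ago1 mRNA is not measured by small RNA libraries, so the genotype labels were not checked on the targeted gene. In bulk tissue, fewer cells of a type and less of a miRNA per cell cannot be told apart.

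A miRNA is cut from a hairpin, whose 5′ side gives the 5p arm and whose 3′ side the 3p arm. Bases 2 to 8 of the mature strand, the seed, do most of the pairing with target mRNAs. Sfmbt2 encodes a Polycomb protein and is imprinted in mouse extraembryonic tissue, where the paternal copy is expressed. One of its introns carries a large miRNA cluster found in rodents, made of many near copies of these families, and known mainly from placenta, trophoblast and embryonic stem cells. miR-467 has also been reported as a glucose-responsive miRNA directed at thrombospondin-1.

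The annotation (GENCODE vM21, GRCm38, the assembly that mm10 names) placed Sfmbt2 on the plus strand of chromosome 2, from 10370510 to 10595253. Of 81 hairpin genes named for the 4 families, 71 lay in intron 10 of a Sfmbt2 transcript with 23 exons. All 71 were on the strand of Sfmbt2, and 0 overlapped an exon. They ran from 10466663 to 10518279, a stretch of 51617 bases. The other 10 hairpins lay on chromosomes 3, 5, 7, 9, 10, 11 and 13. By name, 54 of the 69 members matched hairpins in Sfmbt2 only, 8 matched hairpins elsewhere only, 5 matched both, and miR-466a-3p and miR-466a-5p matched none. A hairpin named Mir466, with no letter, lies in the Sfmbt2 intron at chr2:10507918-10507990 and was matched to no member. Whether miR-466a comes from it was not settled by name. The name "Sfmbt2 cluster" therefore fits most members but not those 8.

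RefSeq (GRCm38.p6) held a mature sequence for 7 of the 69 members, all from hairpins outside Sfmbt2. They are shown 5′ to 3′ with the seed in capitals, since each holds alternating repeats that few miRNAs of these libraries have.
miR-467h: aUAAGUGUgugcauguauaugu
miR-466k: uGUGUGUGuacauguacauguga
miR-466j: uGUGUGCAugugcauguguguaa
miR-467f: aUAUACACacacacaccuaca
miR-466i-3p: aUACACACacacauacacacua
miR-467g: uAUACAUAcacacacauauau
miR-466q: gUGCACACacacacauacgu

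The 7 sequences had 7 different seeds, and 0 miRNAs outside the families with a RefSeq sequence shared one of them. Members without a sequence, among them all those matched only to Sfmbt2, could not be compared, so whether they share these seeds was not tested. Each held an uninterrupted run of at least 6 bases of alternating U and G or of alternating C and A. Such a run was present in 26 of the 698 miRNAs with a RefSeq sequence, 3.72%, the 7 members included. miR-467h, miR-466k and miR-466j were rich in U and G, which made up 68.2%, 69.6% and 73.9% of their bases. miR-467f, miR-466i-3p, miR-467g and miR-466q were rich in A and C, at 85.7%, 86.4%, 71.4% and 70.0%. The longest runs, of 12 bases, were those of miR-467f and miR-466q.

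These 7 came from single hairpins. Mir467h lies between genes at chr9:115381819-115381939, and Mir466j between genes at chr10:60960723-60960844. Mir466q lies in an intron of Tnik, on the same strand, at chr3:28419943-28420018. Mir466k (chr3:85467377-85467498), Mir467g (chr5:34732853-34732972), Mir467f (chr11:69635400-69635519) and Mir466i (chr13:17747473-17747593) lie in introns of Gm37240, Grk4, Fxr2 and Cdk13, each on the opposite strand. Levels differed widely among them: mean values over 9 libraries were 6.42 for miR-467h and 5.55 for miR-467f, 3.05 for miR-466i-3p, and 0.94 for both miR-466k and miR-466q.

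All levels are deposited log2(x + 1) values with the same distribution in every library, and a library's lowest value marks miRNAs that could not be told from absent. Members lay in the lower part of that range. Their mean levels over 9 libraries ran from 0.38 to 6.97, where the median of all tested miRNAs in a library was 7.01 to 7.05. The 58 profiles together held between 0.0178% and 0.0338% of a library's summed back-transformed value. A miRNA was tested if it was above the lowest value in at least 3 libraries and averaged at least 3.46, which is log2(10 + 1). That left 28 of the 58 profiles, drawn from 35 miRNAs, and 489 miRNAs in all. Counts over the 28 leave out 30 rarer profiles, whose means ran from 0.38 to 3.44.

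Families differed in how much of them was measurable. miR-467 had 11 of 12 profiles tested, with all but miR-467g above 4. miR-669 had 9 of 17 tested, miR-466 had 7 of 25, and miR-297 had 1 of 4, the shared 3p arm of miR-297a, miR-297b and miR-297c at 4.0. Profiles above the library's lowest value numbered 54, 53 and 52 in WT, 48, 46 and 52 in Hete_KO, and 45, 50 and 54 in Homo_KO. Over all 860 miRNAs, 87.9% to 92.7% were above it in WT, 82.3% to 88.3% in Hete_KO and 83.6% to 88.1% in Homo_KO. The heat map of all 58 profiles shows this gradient.

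**Figure D1:**
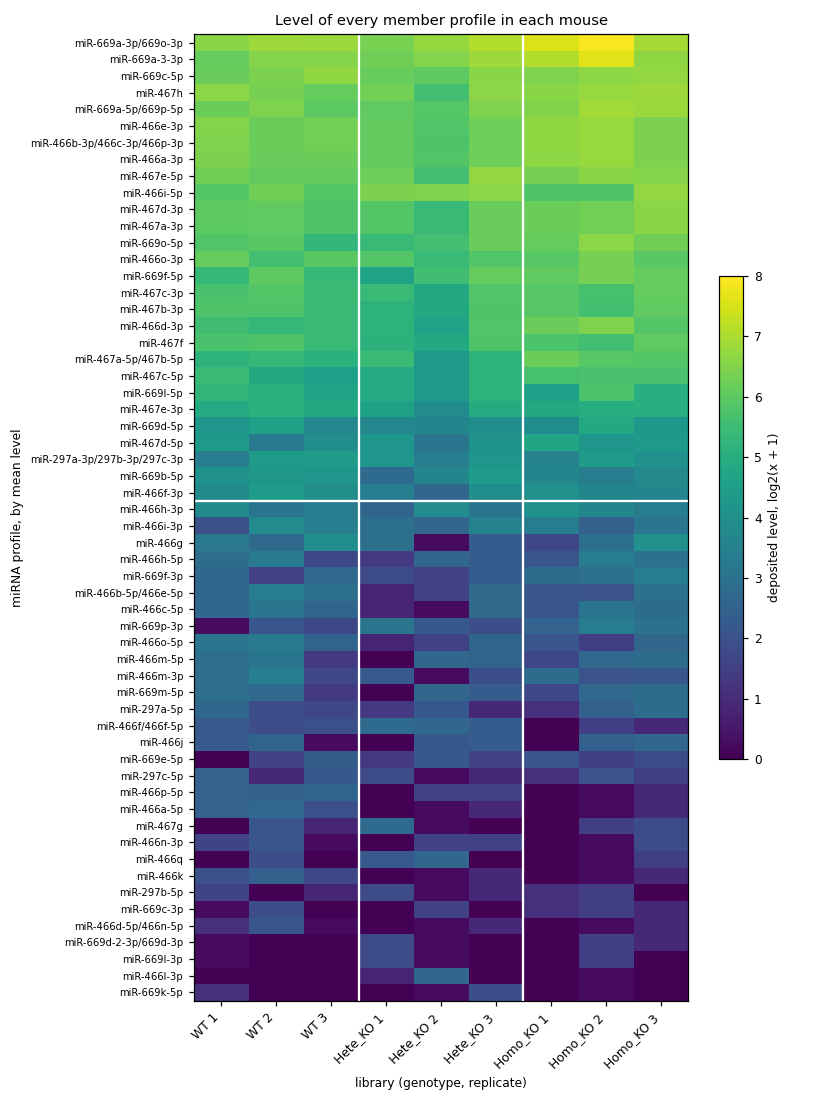
Deposited log2(x + 1) level (colour) of all 58 member profiles (rows, by mean level) in the 9 libraries (columns, 3 mice per genotype), with the 28 tested profiles above the white line. miR-669a-3p/miR-669o-3p is the brightest row, at 7.91 in Homo_KO replicate 2, and most rows under the line lie near 0 in at least 1 library.

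Near copies often carried the same values. In 9 sets, 20 miRNAs had identical values in every library, among them miR-467a-5p and miR-467b-5p, miR-669a-3p and miR-669o-3p, miR-669a-5p and miR-669p-5p, and the 3p arms of miR-466b, miR-466c and miR-466p. Others were nearly identical: miR-467d-3p and miR-467a-3p were equal in 8 libraries and differed by 0.016 in the other. miR-466e-3p equalled the miR-466b-3p set in 7 libraries and differed by at most 0.070. miR-467b-3p, matched to Sfmbt2, and miR-467f, matched to chromosome 11, were equal in 5 libraries and differed by at most 0.18. Reads of such copies may be shared by the authors' counting, which is not described in the sources used here, so their values are uncertain as single miRNAs and are not independent of each other.

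In the miR-669 family, miR-669a-3p/miR-669o-3p was the highest member, at 6.59, 6.82 and 6.79 in the 3 WT mice, 6.39, 6.73 and 7.07 in Hete_KO, and 7.57, 7.91 and 6.91 in Homo_KO. Every Homo_KO mouse lay above every WT mouse, while Hete_KO overlapped with both groups. The Homo_KO minus WT log2 fold change was 0.73 ± 0.27 (SE, n = 3 per group), a 1.66-fold difference, and did not pass limma's test (adjusted p = 0.161, Benjamini-Hochberg over 489 miRNAs).
Its close relative miR-669a-3-3p had 6.12, 6.56 and 6.53 in WT, 6.26, 6.53 and 6.82 in Hete_KO, and 7.09, 7.64 and 6.66 in Homo_KO, with a log2 difference of 0.73 ± 0.27 and the same adjusted p of 0.161 by limma. Replicate 3 was the lowest Homo_KO mouse for both, close to the highest WT and below the highest Hete_KO mouse.

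The 5p arm miR-669a-5p/miR-669p-5p, the other strand of these hairpins, had 6.21, 6.45 and 5.97 in WT, 6.03, 5.88 and 6.46 in Hete_KO, and 6.49, 6.90 and 6.79 in Homo_KO. All Homo_KO mice were above all others. The log2 difference to WT was 0.52 ± 0.21 (limma adjusted p = 0.192). miR-669c-5p had 6.18, 6.43 and 6.66 in WT, 6.13, 6.02 and 6.58 in Hete_KO, and 6.46, 6.65 and 6.71 in Homo_KO. The groups overlapped, and its Homo_KO minus WT difference of 0.18 ± 0.20 was smaller than its SE.

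In the miR-466 family, the 3p arms stood highest. The shared profile of miR-466b-3p, miR-466c-3p and miR-466p-3p had 6.46, 6.22 and 6.28 in WT, 6.09, 5.78 and 6.23 in Hete_KO, and 6.67, 6.77 and 6.43 in Homo_KO. Hete_KO lay low and Homo_KO high, and the Homo_KO mice did not overlap with Hete_KO but did with WT. The log2 difference was 0.31 ± 0.18 for Homo_KO minus WT and 0.59 ± 0.18 for Homo_KO minus Hete_KO, with limma adjusted p-values of 0.341 and 0.509. miR-466e-3p had 6.53, 6.22 and 6.28 in WT, 6.09, 5.84 and 6.23 in Hete_KO, and 6.67, 6.77 and 6.43 in Homo_KO. miR-466a-3p had 6.42, 6.18 and 6.22 in WT, 6.09, 5.84 and 6.23 in Hete_KO, and 6.63, 6.77 and 6.43 in Homo_KO. Both were close to the shared profile, with Homo_KO minus WT differences of 0.28 ± 0.18 and 0.34 ± 0.18.
miR-467h, the most abundant member from outside Sfmbt2 and rich in U and G, had 6.61, 6.35 and 6.11 in WT, 6.30, 5.61 and 6.61 in Hete_KO, and 6.57, 6.77 and 6.81 in Homo_KO. Its groups overlapped, and the Homo_KO minus WT difference was 0.36 ± 0.26 (limma adjusted p = 0.428). The plot of the 8 most abundant profiles shows all of these mice.

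**Figure D2:**
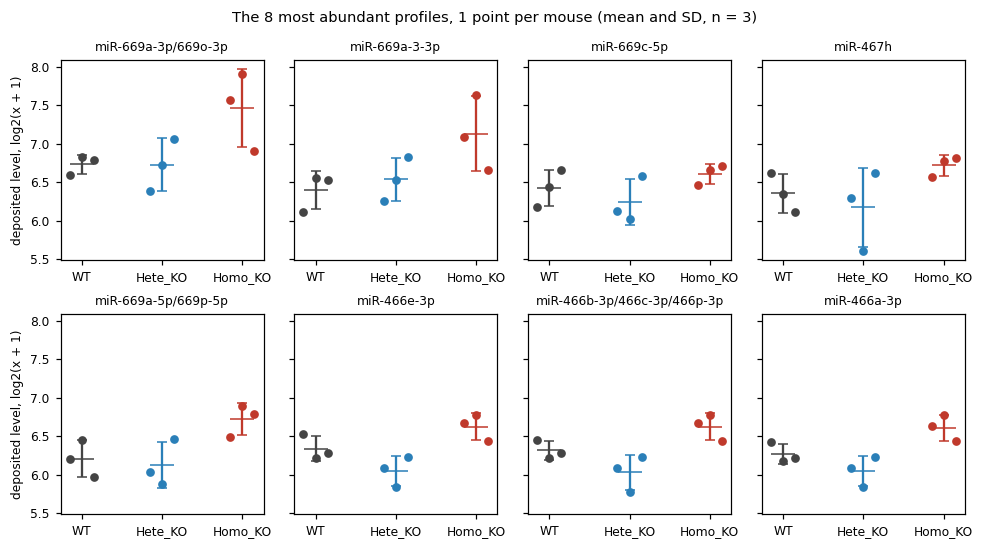
Deposited log2(x + 1) level of the 8 most abundant member profiles in each mouse (points; horizontal mark and bar, mean and SD, n = 3) by genotype. Homo_KO means are the highest of the 3 genotypes in all 8 panels, and Homo_KO lies wholly above WT in the panels of miR-669a-3p/miR-669o-3p, miR-669a-3-3p, miR-669a-5p/miR-669p-5p and miR-466a-3p.

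Homo_KO against WT asks how the families stand when the endothelial knockout is of the Homo KO genotype. Of the 28 tested profiles, 25 had a higher mean in Homo_KO, with a median log2 fold change of 0.32 and a range from -0.53 to 0.79. Over all 489 tested miRNAs the median was 0.073 and 55% were higher. By limma, 0 of the 28 passed an adjusted p of 0.05 in either direction, against 1.64% of all tested miRNAs called higher and 1.64% called lower, and the lowest adjusted p among members was 0.161. At an unadjusted p under 0.05 there were 7, all higher, where 13.5% of all tested miRNAs were higher and 10.4% lower at that level. The 3 mice of Homo_KO lay wholly above WT in 12 profiles, against 18.4% of all tested miRNAs, and wholly below in 1, miR-669b-5p, against 14.3%.

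The largest differences were in the 5p arms of miR-467. miR-467a-5p/miR-467b-5p had 5.19, 5.34 and 5.09 in WT, 5.46, 4.35 and 5.17 in Hete_KO, and 6.22, 5.92 and 5.85 in Homo_KO. Homo_KO lay above both other groups with no overlap, and its log2 difference to WT was 0.79 ± 0.29, a 1.73-fold difference (limma adjusted p = 0.161). miR-467c-5p had 5.42, 4.87 and 4.52 in WT, 4.92, 4.35 and 5.17 in Hete_KO, and a narrow 5.67, 5.69 and 5.70 in Homo_KO, with a difference of 0.75 ± 0.29 (limma adjusted p = 0.176). miR-466d-3p showed the same order, with 5.55, 5.34 and 5.38 in WT, 5.16, 4.61 and 5.83 in Hete_KO, and 6.18, 6.44 and 5.85 in Homo_KO. It differed from WT by 0.73 ± 0.30 (limma adjusted p = 0.192), and again every Homo_KO mouse was above every other mouse.

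By family, 11 of 11 tested miR-467 profiles, 6 of 7 of miR-466 and 8 of 9 of miR-669 had a higher mean in Homo_KO than in WT, with medians of 0.36, 0.28 and 0.52. The single tested miR-297 profile stood at -0.069 ± 0.40, with 3.41, 4.35 and 4.44 in WT, 4.21, 3.42 and 4.19 in Hete_KO, and 3.54, 4.38 and 4.05 in Homo_KO, so the 3 groups covered the same range. The 22 tested profiles matched only to Sfmbt2 had a median of 0.38, with 21 higher. The 3 matched only elsewhere, miR-467h, miR-466i-5p and miR-467f, had a median of 0.17, with all 3 higher. The 2 with hairpins in both places, the shared miR-297 3p profile and miR-466f-3p, had a median of -0.17, with 0 higher. miR-466a-3p, at 0.34, had no hairpin matched by name and is in none of these sets. Whether the sets differ was not tested.

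Beside miR-297, the profiles with a lower mean in Homo_KO were miR-669b-5p and miR-466f-3p. miR-669b-5p had 4.05, 4.23 and 4.16 in WT, 2.79, 3.66 and 4.43 in Hete_KO, and 3.68, 3.39 and 3.77 in Homo_KO. Its WT mice were tight and above all Homo_KO mice, while Hete_KO spread past both ends. The difference was -0.53 ± 0.42 for Homo_KO and -0.52 ± 0.42 for Hete_KO against WT, neither past limma's test (adjusted p = 0.45 and 0.586). The Hete_KO value rested on replicate 1: it was -0.10 without that library, and -0.92 without Hete_KO replicate 3. miR-466f-3p, at 3.81, 4.43 and 3.97 in WT and 4.04, 3.68 and 3.66 in Homo_KO, overlapped between those groups, with a difference of -0.27 ± 0.39 that was -0.095 without WT replicate 2.

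Markers of other cell types also differed between libraries. The mean of 4 skeletal muscle miRNAs (miR-206-3p, miR-1a-3p and the 3p arms of miR-133a and miR-133b, with none at the lowest value throughout a group) ran from 7.56 to 13.7 in WT, 8.76 to 14.3 in Hete_KO and 6.17 to 11.7 in Homo_KO. With that mean as a covariate, the median over the 28 profiles for Homo_KO minus WT was 0.24, with 22 higher, and limma gave 0 rather than 7 at an unadjusted p under 0.05. The 3 leukocyte miRNAs (miR-142a-3p, miR-150-5p and miR-223-3p) averaged 12.0 to 12.3 in WT, 11.8 to 12.3 in Hete_KO and 12.4 to 12.7 in Homo_KO, and their part in the result was not tested. The pair miR-126a-3p and miR-126a-5p, markers of the endothelium in which Ago1 was knocked out, averaged 16.3 to 16.7 in WT, 15.7 to 16.0 in Hete_KO and 16.0 to 16.2 in Homo_KO. Every knockout mouse thus lay below every WT mouse in that mean, whose part in the member values was not tested. The separation came from miR-126a-5p. In miR-126a-3p the groups overlapped, with 17.6 in WT replicate 1, Hete_KO replicate 1 and Homo_KO replicates 1 and 2. Of all tested miRNAs, 14.3% lay wholly below WT in Homo_KO and 8.59% in Hete_KO. The mural and stromal miRNAs miR-143-3p, miR-145a-5p and miR-199a-3p averaged 16.1 to 16.6 over all libraries. The miR-290 cluster, which marks embryonic stem cells and trophoblast, lay near the lowest value in every library, with means of 0.22 to 1.23 over 4 miRNAs.

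The number with an unadjusted p under 0.05 in Homo_KO minus WT also turned on single libraries. By limma it was 1 without Homo_KO replicate 2, and 3 and 4 without Homo_KO replicates 1 and 3. It was 2, 5 and 2 without WT replicates 1, 2 and 3, and 8, 7 and 7 without those of Hete_KO. Over all 489 miRNAs, calls at an adjusted p under 0.05 moved as well, from 16 with all libraries. They were 3, 7 and 14 without WT replicates 1, 2 and 3, and 23, 25 and 6 without those of Hete_KO. Without Homo_KO replicates 1, 2 and 3 they were 2, 3 and 2. The member counts are at an unadjusted p and these at an adjusted p. Whether the fall was particular to members was therefore not tested. The number with a higher mean stayed between 22 and 26 of 28 when any 1 library was left out.

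Hete_KO against WT showed the other sign in most profiles. A lower mean in Hete_KO was found in 24 of 28 tested profiles, with a median of -0.19, where all tested miRNAs had a median of -0.017 and 47.2% were higher. By limma 0 of the 28 were called, against 0.409% of all tested miRNAs called higher and 0% called lower. At an unadjusted p under 0.05, 0 members were found, against 8.59% higher and 7.16% lower of all tested miRNAs. Only 1 profile, miR-466i-5p, had Hete_KO wholly above WT and 0 had it wholly below, against 8.59% of all tested miRNAs for each. This comparison shares its WT mice with the one above.

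A single mouse carried most of that direction. Hete_KO replicate 2 had the lowest of the 9 values in 21 of the 28 profiles, and its mean over them was 5.01, against 5.31 and 5.72 in the other Hete_KO mice. Without it, the Hete_KO minus WT median was 0.017 and 14 of 28 profiles were higher. Without it and WT replicates 1 and 2, the 3 libraries with most muscle miRNA, the median was 0.087 with 18 of 28 higher, and WT was then a single mouse assumed to vary like the other groups. With all 9 libraries and the muscle mean as a covariate, the median was -0.21 with 3 of 28 higher. Hete_KO replicate 2 had the most muscle miRNA of all 9, at 14.3, and the most miRNAs at the lowest value, 152 against 63 to 141 elsewhere. The part of either in its low member values was not tested. Of the other libraries, WT stood at 5.57, 5.62 and 5.43 and Homo_KO at 5.78, 5.95 and 5.84, so that Homo_KO lay above all 6 others in this mean, the nearest being Hete_KO replicate 3 at 5.72.

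**Figure D3:**
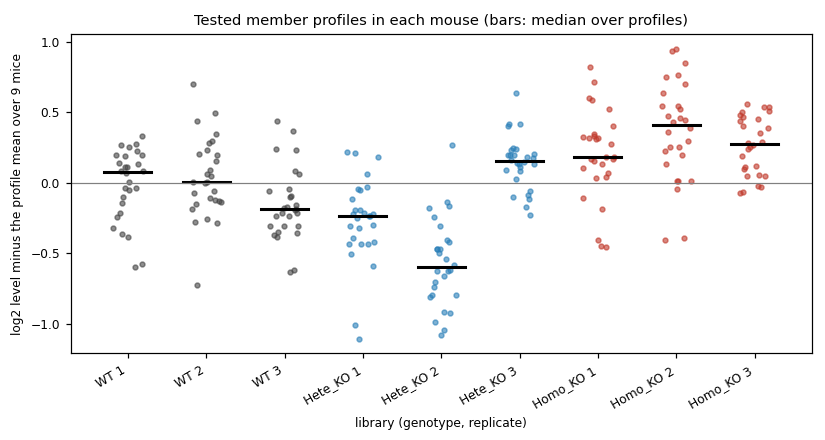
Level of each of the 28 tested member profiles in each library minus that profile's mean over 9 mice (points, log2 units; black bars, median over profiles), by library and genotype. The points of Hete_KO replicate 2 centre on -0.60, and those of the 3 Homo_KO libraries on 0.18, 0.41 and 0.27.

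The 3 largest negative Hete_KO differences, in miR-466f-3p, miR-669b-5p and miR-467e-3p, were in rarer members. miR-466f-3p had 3.42, 2.65 and 3.91 in Hete_KO, which overlapped with WT, and differed by -0.74 ± 0.39 (limma adjusted p = 0.385). Without Hete_KO replicate 2 it was -0.40, and without the 3 libraries with most muscle miRNA -0.30. miR-467e-3p had 4.90, 5.07 and 4.86 in WT, 4.57, 3.86 and 4.92 in Hete_KO, and 4.85, 4.98 and 5.02 in Homo_KO. Its Hete_KO minus WT difference was -0.49 ± 0.29, and only replicate 2 stood far below the other mice. The same omissions gave -0.20 and -0.12.
Of the 4 profiles with a higher mean in Hete_KO than in WT, the farthest was miR-466i-5p, from the hairpin on chromosome 13, with 5.87, 6.26 and 5.85 in WT, 6.42, 6.46 and 6.61 in Hete_KO, and 5.79, 5.80 and 6.71 in Homo_KO. Its Hete_KO minus WT difference was 0.50 ± 0.26 (limma adjusted p = 0.381), and Homo_KO split into 2 mice below the lowest Hete_KO value and 1 above the highest. miR-669o-5p, at 5.82, 5.96 and 5.30 in WT, 5.41, 5.61 and 6.16 in Hete_KO, and 6.10, 6.61 and 6.27 in Homo_KO, overlapped between Hete_KO and WT (0.034 ± 0.27). The others were miR-669a-3-3p at 0.13 ± 0.27 and miR-467e-5p at 0.026 ± 0.25.

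**Figure D4:**
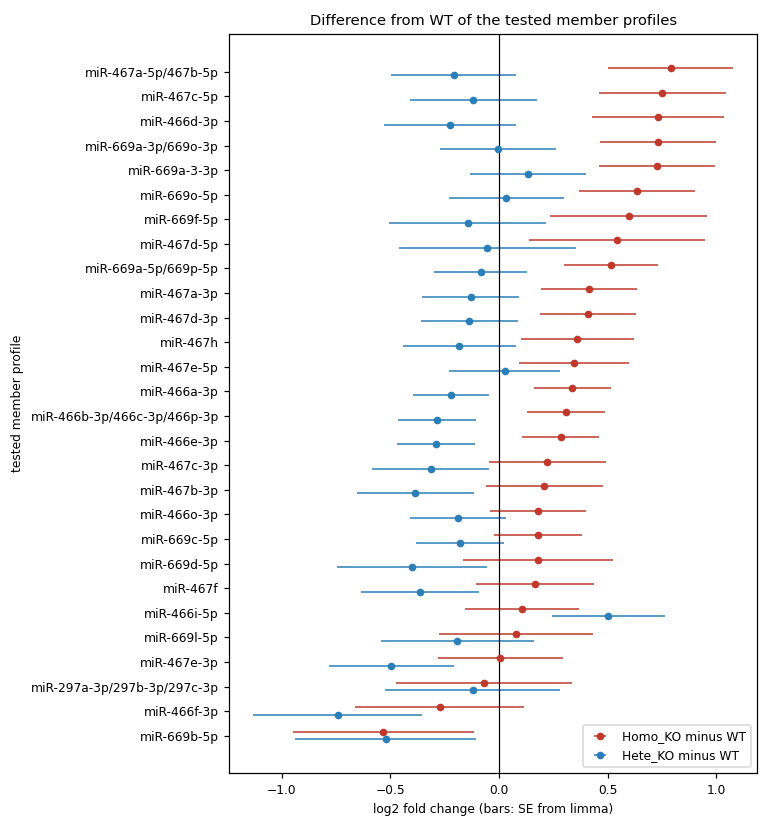
Log2 fold change (points; bars, SE from limma) of the 28 tested member profiles for Homo_KO minus WT (red) and Hete_KO minus WT (blue), ordered by the former. Most red points lie right of 0 and most blue points left of it, with miR-466i-5p, at 0.50 in Hete_KO, the farthest right among the blue, and the bars of many profiles reach 0.

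Between the 2 knockout genotypes the median gap was wider than either gap to WT. Homo_KO had the higher mean in 26 of 28 profiles, with a median log2 difference of 0.55, where all tested miRNAs had a median of 0.040 and 56.6% were higher. By limma 0 of the 28 were called, as were 0% of all tested miRNAs. There were 11 at an unadjusted p under 0.05, all higher in Homo_KO, against 6.34% of all tested miRNAs higher and 2.04% lower, and 10 lay wholly above Hete_KO, against 9%, with 0 wholly below, against 3.27%. miR-467a-5p/miR-467b-5p had the largest difference, 0.999 ± 0.29 (limma adjusted p = 0.509). Without Hete_KO replicate 2 the median was 0.35, with 6 at an unadjusted p under 0.05, and without Hete_KO replicate 3 the median was 0.74, with 20. Over the 3 genotypes together, limma's moderated F-test called 0 of the 28 profiles, against 1.23% of all tested miRNAs, and 9 had an unadjusted p under 0.05, against 18.8%.

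Members varied together across mice. The Pearson correlation of a tested profile with the mean of the other tested profiles over 9 libraries had a median of 0.83 and exceeded 0.5 in 25 of 28 profiles, while the median for tested miRNAs outside the families was 0.09. It was highest for miR-466d-3p, at 0.94. The 3 exceptions were miR-297a-3p/miR-297b-3p/miR-297c-3p at 0.28, miR-669b-5p at 0.13 and miR-466i-5p at -0.25. These correlations are descriptions: the 9 points include the genotype differences, the libraries share one set of ranked values, and near copies may share reads. The miRNAs outside the families most like the members' mean were miR-142a-3p, a leukocyte miRNA, at 0.86, miR-511-5p at 0.81, miR-10a-5p at 0.80, miR-340-5p at 0.79 and miR-34b-5p at 0.78. miR-142a-3p had 12.2, 12.3 and 11.9 in WT, 12.0, 10.9 and 12.0 in Hete_KO, and 12.4, 12.4 and 12.2 in Homo_KO, also with its lowest value in Hete_KO replicate 2. The other leukocyte miRNAs listed above, miR-150-5p and miR-223-3p, did not share that low value, with 12.4 and 12.0 in the same library. Their lowest values, 12.0 and 11.7, were in WT replicate 2.

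The families differed in which arm of the hairpin was abundant, as the plot of arms shows. Counts here are by name, although several names share the values of an arm and are not independent. The 3p values are the same for miR-466b, miR-466c and miR-466p, and for miR-669a and miR-669o. The 5p values are the same for miR-466b and miR-466e, for miR-466d and miR-466n, and for miR-669a and miR-669p. In miR-297 the 3p arm was higher in all 9 libraries for 3 of 3 names, all with the same 3p values. In miR-466 it was so for 7 of 12, by up to 5.26 for miR-466a, whose 3p arm averaged 6.31 and 5p arm 1.05. miR-466i was the reverse, with 5p at 6.20 and 3p, the printed sequence rich in A and C, at 3.05. In miR-669 the 5p arm was higher in all 9 libraries for 5 of 7 names, most of all miR-669c with 6.43 for 5p and 0.79 for 3p. miR-669a and miR-669o had the higher 3p arm.
In miR-467 the 3p arm averaged higher by 2.02 for miR-467d, where it led in all 9 libraries, and by 0.65, 0.19 and 0.50 for miR-467a, miR-467b and miR-467c. For miR-467e the 5p arm led in every library, and the 3p minus 5p difference was -1.20 ± 0.18 (SD, n = 3) in WT, -1.72 ± 0.061 in Hete_KO and -1.54 ± 0.038 in Homo_KO. These values were not tested.

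The arms opposite the profiles described above were as follows. miR-467a-3p had 5.995, 6.05 and 5.81 in WT, 5.86, 5.42 and 6.18 in Hete_KO, and 6.22, 6.30 and 6.58 in Homo_KO. miR-467b-3p had 5.79, 5.79 and 5.38 in WT, 5.16, 4.85 and 5.79 in Hete_KO, and 5.92, 5.61 and 6.06 in Homo_KO. Homo_KO lay above all other mice in miR-467a-3p and overlapped with both groups in miR-467b-3p. miR-467c-3p had 5.71, 5.85 and 5.46 in WT, 5.41, 4.85 and 5.83 in Hete_KO, and 5.92, 5.66 and 6.12 in Homo_KO. miR-467e-5p had 6.27, 6.09 and 6.08 in WT, 6.22, 5.61 and 6.69 in Hete_KO, and 6.37, 6.56 and 6.53 in Homo_KO. Only the second of these had Homo_KO wholly above WT, and both had their lowest value in Hete_KO replicate 2.
The 5p arms of miR-466 were low. miR-466b-5p and miR-466e-5p shared 2.69, 3.44 and 2.95 in WT, 0.84, 1.59 and 2.78 in Hete_KO, and 2.14, 2.04 and 3.01 in Homo_KO. miR-466c-5p had 2.69, 3.11 and 2.56 in WT, 0.84, 0.22 and 2.78 in Hete_KO, and 2.14, 3.12 and 2.84 in Homo_KO. Both overlapped between all groups, with low values in 2 Hete_KO mice. miR-466d-5p had 1.07, 2.16 and 0.22 in WT, and 0.00, 0.22 and 0.91 in each knockout group. miR-466i-3p had 1.98, 3.86 and 3.44 in WT, 2.95, 2.65 and 3.56 in Hete_KO, and 3.40, 2.47 and 3.13 in Homo_KO.
miR-669c-3p had 0.22, 1.88 and 0.00 in WT, 0.00, 1.59 and 0.00 in Hete_KO, and 1.07, 1.48 and 0.91 in Homo_KO. miR-669p-3p had 0.22, 2.16 and 1.72 in WT, 3.11, 2.21 and 1.92 in Hete_KO, and 2.52, 3.39 and 3.01 in Homo_KO, all above WT. The 5p arms of miR-297a, miR-297b and miR-297c ran from 0.00 to 2.84 over all libraries, with the groups overlapping in each.

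**Figure D5:**
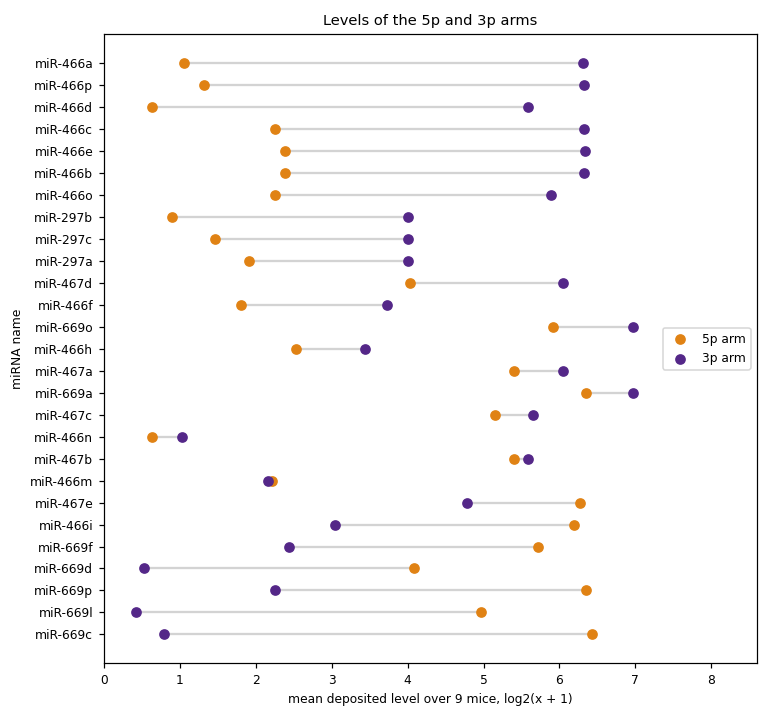
Mean deposited log2(x + 1) level over 9 mice of the 5p arm (orange) and 3p arm (purple) for each member name with both arms, ordered by their difference. The miR-466 and miR-297 names at the top have the higher 3p arm, at up to 6.34, and most miR-669 names at the bottom the higher 5p arm.

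Of the 30 profiles too rare to test, a few differed between groups with no overlap. Homo_KO lay wholly above WT in 2 of them, miR-669f-3p and miR-669p-3p, and wholly below in 4, where 12.8% of all 860 miRNAs were above and 11.5% below. Hete_KO lay wholly above WT in 1 and wholly below in 3, against 7.21% of all 860 for each. miR-466p-5p had 2.52, 2.47 and 2.56 in WT, 0.00, 1.59 and 1.59 in Hete_KO, and 0.00, 0.22 and 0.91 in Homo_KO. miR-466a-5p had 2.52, 2.74 and 1.94 in WT, and 0.00, 0.22 and 0.91 in both Hete_KO and Homo_KO, which are those libraries' lowest or near-lowest values.
miR-466k, the sequence with the longest alternating U and G run among those printed, had 1.98, 2.47 and 1.72 in WT and the same 6 knockout values as miR-466a-5p. miRNAs at the lowest value numbered 63 to 104 in WT, 101 to 152 in Hete_KO and 102 to 141 in Homo_KO, and the part of that in these low values was not tested. The profile shared by miR-466f and miR-466f-5p lay wholly above WT in Hete_KO and wholly below it in Homo_KO. It had 2.25, 1.88 and 1.94 in WT, 2.79, 2.65 and 2.33 in Hete_KO, and 0.00, 1.48 and 0.91 in Homo_KO. No fold change is given for these untested profiles.

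Lists of miRNAs from other imprinted loci are given beside the members. Of 54 tested miRNAs of the Dlk1-Dio3 cluster, 54 had a lower mean in Homo_KO than in WT (median -0.49), against 220 of all 489 tested miRNAs, and limma called 1 of them lower, against 1.64% of all. At an unadjusted p under 0.05 by limma, 22 were lower, against 10.4% of all. Homo_KO lay wholly below WT in 24, against 14.3% of all. In Hete_KO 43 had a lower mean (median -0.25), against 257 of all 489, and limma called 0, against 0% called lower of all. At an unadjusted p under 0.05 by limma, 7 were lower, against 7.16% of all. Of 5 tested arms of miR-296, miR-298 and miR-335, 4 had a lower mean in Homo_KO (median -0.97) and 5 in Hete_KO (median -1.28). Limma called 0 of these 5 in either comparison. At an unadjusted p under 0.05, 1 and 3 were lower, against 10.4% and 7.16% of all tested miRNAs. The median of the profiles matched only to Sfmbt2 was 0.38 in Homo_KO and -0.18 in Hete_KO, and the difference between the lists was not tested. Sfmbt2 itself holds 48 further annotated miRNA genes, of which 0 matched a miRNA of these libraries by name. Genes named in another form could not match, so whether their products are among the values was not tested.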

How the data were processed

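Small RNA libraries of 9 mice were made from Trizol RNA with Illumina's TruSeq small RNA kit, per the labels' protocols. The genome build was mm10 per the submitters' processing notes. No source used here gives the aligner, counting or normalization. The authors deposited 1 log2 value per mature miRNA, in files that speak of FPKM. The values share one distribution in all libraries, as quantile-normalized log2(x + 1) values would, so depth is unknown, no counting interval is given, and differences are steps between shared rank levels. Groups came from the genotype labels. Tests on the deposited values used limma 3.58.1 (moderated by eBayes, with a trend of variance on level; R 4.3.3) over all 9 libraries and 489 miRNAs, with Benjamini-Hochberg adjustment at 0.05. Only the test of Homo_KO minus WT was tried on simulated data, in which miRNAs varied independently of each other. Its power for differences as small as those of the members is not given here. Fold changes on this scale understate those of rare miRNAs. The members, lists and tests were chosen with earlier results of these data known. Values per mouse are given for the 8 most abundant profiles, the 3 largest differences in each direction for each knockout against WT, and their opposite arms, except the miR-297 5p arms, given as a range. miR-466k, miR-466p-5p and miR-466f were named after their values were seen, as were miR-669f-3p and miR-669p-3p. Hairpin positions are from GENCODE vM21. Alternatives were the filter, median scaling, a pseudocount of 10, the variance trend, the replicate block, only the groups compared, detection and muscle covariates, identical miRNAs kept once, and each library left out. Leaving out the 3 libraries with the most muscle miRNA was added after the data were seen. Figures were drawn with matplotlib.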

Additional observations from a re-analysis of the deposited data

How the results depend on the processing

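By limma, 0 members were called in each of the 3 comparisons under all 20 alternatives, with lowest adjusted p-values of 0.0555 for Homo_KO minus WT, 0.103 for Hete_KO minus WT and 0.295 for Homo_KO minus Hete_KO, and 0 under 19 alternatives for the F-test, with 0.0663. The median of the tested members for Homo_KO minus WT was 0.17 over all 58 profiles with no filter, 0.42 with a covariate for how many miRNAs sat at the lowest value, and 0.46 leaving out the 3 most muscle-rich libraries. That last setting leaves WT with 1 library, assumed to vary like the other groups, and gave a Hete_KO minus WT median of 0.087. The muscle covariate gave -0.21 for Hete_KO minus WT. With each library left out in turn the medians ran from 0.29 to 0.39 for Homo_KO minus WT, from -0.33 to 0.017 for Hete_KO minus WT and from 0.35 to 0.74 for Homo_KO minus Hete_KO. Counting profiles above 1 rather than above the lowest value gave means of 49.7 in WT and 45.3 in Hete_KO, against 53.0 and 48.7.

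Small differences changed sign. For Homo_KO minus WT, the shared miR-297 3p profile was 0.048 with the lowest-value covariate and ran from -0.40 to 0.16 with a library left out, and miR-669c-5p was -0.0049 with the muscle covariate and -0.053 without the 3 muscle-rich libraries. For Hete_KO minus WT, the lowest-value covariate gave 0.13 for miR-467h, -0.16 for miR-669a-3-3p and -0.15 for miR-669o-5p. Without the muscle-rich libraries miR-467h was 0.35 and miR-669a-5p/miR-669p-5p was 0.28. With a library left out, miR-467h ran from -0.40 to 0.10, miR-669a-3-3p from -0.0098 to 0.27, miR-669a-3p/miR-669o-3p from -0.17 to 0.17, miR-669a-5p/miR-669p-5p from -0.25 to 0.039 and miR-669o-5p from -0.18 to 0.19. The cause was not tested.

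Whether replicate numbers pair the mice could not be settled from the values. Same-numbered libraries had correlations of their deviations from -0.28 to 0.55. The best partner had the same number in 8 of 18 cases. With the number as a replicate block, 0 members were called and the Homo_KO minus WT median was 0.32, with 4 rather than 7 members at an unadjusted p under 0.05. Over all 489 miRNAs the block moved calls from 16 to 25 for Homo_KO minus WT, from 2 to 15 for Hete_KO minus WT and from 6 to 16 by the F-test, and Homo_KO minus Hete_KO had 0 with or without it. Depth is unknown, so low values cannot be told from absence.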
